A study of Homo sapiens with 9 samples.

Results

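The 10 genes described here encode the NF-kB transcription factors and their inhibitors: the subunits NFKB1, NFKB2, RELA, RELB and REL, the inhibitors NFKBIA, NFKBIB, NFKBIE and NFKBIZ, and the ubiquitin-editing enzyme TNFAIP3. They were taken by symbol from a table of read counts for 60708 genes, and each of the 10 had 1 row and passed the filter on low counts. RNA came from MDA-MB-231, an established human triple-negative breast cancer cell line, in 3 groups of 3 libraries. DMSO cells received the solvent, PdB cells received 10 nM pladienolide B for 16 h, and recovery cells were collected 24 h after the same exposure ended. Pladienolide B is a macrolide that binds the SF3B complex of the U2 snRNP and blocks splicing, and the series asks how a passing block of splicing changes these tumour cells.

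NF-kB proteins are dimers of REL-family subunits that most cells hold in the cytoplasm, bound to IkB inhibitors. In the canonical pathway, receptors and adaptors activate the IkB kinase complex, IkB is phosphorylated, ubiquitylated and degraded, and dimers such as RELA with p50 enter the nucleus. There they induce, among other genes, their own inhibitors NFKBIA and TNFAIP3, which then shut the response down. The noncanonical pathway runs through the kinase NIK, which triggers processing of the NFKB2 product p100 to p52, the partner of RELB. Triple-negative breast cancer lines are known for basal NF-kB activity.

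Libraries held 56389689 to 67047079 counts, and the count of a member in a library lay between 407 for REL and 16333 for RELA. The labels do not say whether the libraries of a group came from separate cultures, so p-values measure only the spread between these libraries, which may be technical. The markers VIM, CD44, EGFR, ITGB1 and CAV1 summed to 6241 to 6259 CPM (read counts scaled to the size of the library) in DMSO, 5636 to 5926 in PdB and 3161 to 3226 at recovery. ESR1, the oestrogen receptor, was at 0 in every library. The markers listed beforehand as low in this line (ESR1, PGR, CDH1, EPCAM and KRT8) summed to 615 to 746 CPM in DMSO, 591 to 724 in PdB and 727 to 854 at recovery. Nearly all of it was KRT8, which was thus not low. Of 11 leukocyte markers, 9 were below 1 CPM in DMSO and PdB and 10 at recovery, and their sums of 99.6 to 109 CPM, 126 to 142 CPM and 84.5 to 89.0 CPM were nearly all CD68. Their part in the results was not tested. In bulk RNA, a smaller share of cells that express a gene and less RNA per cell cannot be told apart.

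Several members are known NF-kB targets with kB sites, the short elements that the dimers bind, near their start sites. RefSeq windows of 300 bases around annotated starts (GRCh38.p14, 250 bases before to 50 after) were present for 8 members, with 14 windows in all. RELB and NFKBIE had none. The kB decamer GGGNNTTTCC, searched on both strands, occurred in 1.91% of all 35116 windows and in 8 of the 14 member windows, which belong to 7 genes. RELA was the gene without it. The sites are shown because these are the letters that NF-kB dimers read, with the match in capitals, 5′ to 3′ on the strand of the gene.
NFKB1: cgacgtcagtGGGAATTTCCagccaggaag
NFKB2, window 2: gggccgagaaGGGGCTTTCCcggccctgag
NFKB2, window 3: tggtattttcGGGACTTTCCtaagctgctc
REL: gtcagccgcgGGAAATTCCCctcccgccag
NFKBIA: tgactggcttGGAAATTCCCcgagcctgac
NFKBIB: gggcgtggtgGGGAATTTCCcgcagggcgg
NFKBIZ: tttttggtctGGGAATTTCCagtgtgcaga
TNFAIP3: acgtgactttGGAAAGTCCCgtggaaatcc

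In REL, NFKBIA and TNFAIP3 the match reads as the reverse complement. The NFKB1 site lies at chr4:102501300-102501329, with its match starting 49 bases before the RefSeq start. The REL site lies at chr2:60881518-60881547, 46 bases before the RefSeq start of REL. The NFKB2 sites lie at chr10:102394490-102394519 and chr10:102395674-102395703, 78 and 21 bases before the starts of their windows. The NFKBIA site lies at chr14:35404811-35404840 on the minus strand, 81 bases before the start, and the NFKBIB site at chr19:38899931-38899960, 28 bases before it. The NFKBIZ site lies at chr3:101827757-101827786, 223 bases before the start, and the TNFAIP3 site at chr6:137867182-137867211, 67 bases before it. A second TNFAIP3 match, GGAAATCCCC, starts 55 bases before that start. All these starts are from RefSeq, whereas the gene coordinates given below are from GENCODE, and the 2 differ. By the GENCODE coordinates, the matches of NFKB2, REL, NFKBIB and TNFAIP3 lie inside the gene. Those of NFKB1, NFKBIA and NFKBIZ lie before it. In windows with a match, bases before the RefSeq start overlapped annotated exons for NFKB1, NFKB2, REL, NFKBIB and TNFAIP3, but not for NFKBIA and NFKBIZ. NFKB1, REL, NFKBIA, NFKBIB and NFKBIZ share 1 exact decamer, GGGAATTTCC or its reverse complement, which was picked out after the sequences had been read and occurs in 0.145% of all windows. The looser kB consensus, which overlaps the first motif, occurred in 11.3% of all windows and in 9 of the 14 member windows, of the same 7 genes. A match describes letters only. Of the 7 genes with a match, REL, NFKBIA, NFKBIB and TNFAIP3 rose under PdB, NFKB2 fell, and NFKB1 and NFKBIZ did not pass the test. Of all genes tested, 31.9% rose and 38.1% fell. Whether the sites bear on these calls was not tested.

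Under PdB the system moved in both directions. The inhibitors NFKBIA and TNFAIP3 rose furthest, by 2.98-fold and 3.17-fold, REL rose 2.26-fold and NFKBIB 1.46-fold. NFKB2 fell by 1.38 on the log2 scale, RELB by 0.67 and NFKBIE by 0.57. NFKB1, RELA and NFKBIZ did not pass the test. In edgeR's quasi-likelihood test over all 20812 genes with Benjamini-Hochberg adjustment at 0.05, 4 members rose and 3 fell, against 31.9% and 38.1% of all genes tested. With 70.0% of genes called in either direction, 7 of 10 members is the share of the whole table, and the same 7 did not overlap between groups, as was so for 72.5% of genes. At least 2-fold changes were seen for 4 members and for 39.6% of genes. The split depends on scaling: library totals alone gave 4 rises and 5 falls, and upper-quartile factors 6 rises and 3 falls.

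At recovery most members were above DMSO. NFKB1, NFKB2, RELA, NFKBIB, NFKBIE, NFKBIZ and TNFAIP3 rose, REL fell, and RELB and NFKBIA did not pass the test. Those 7 rises of 10 stood against 30.7% of all genes, and the 1 fall against 30.5%. The test called 61.2% of genes in either direction, and 8 members did not overlap between groups against 70.4% of genes. TNFAIP3 was the 1 member past 2-fold, a size reached by 25.3% of genes. The median log2 change of the 10 members was 0.61, against 0.03 for all genes tested.

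Between PdB and recovery 7 members rose, REL and NFKBIA fell and TNFAIP3 did not pass the test. Of all genes tested, 34.6% rose, 31.5% fell and 66.1% were called in this comparison, and groups did not overlap for 9 members and 70.5% of genes. Changes of at least 2-fold were found for 4 members, NFKB2, REL, NFKBIA and NFKBIE, and for 32.8% of genes. The comparisons share groups, so their values for a gene are not independent.

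**Figure D1:**
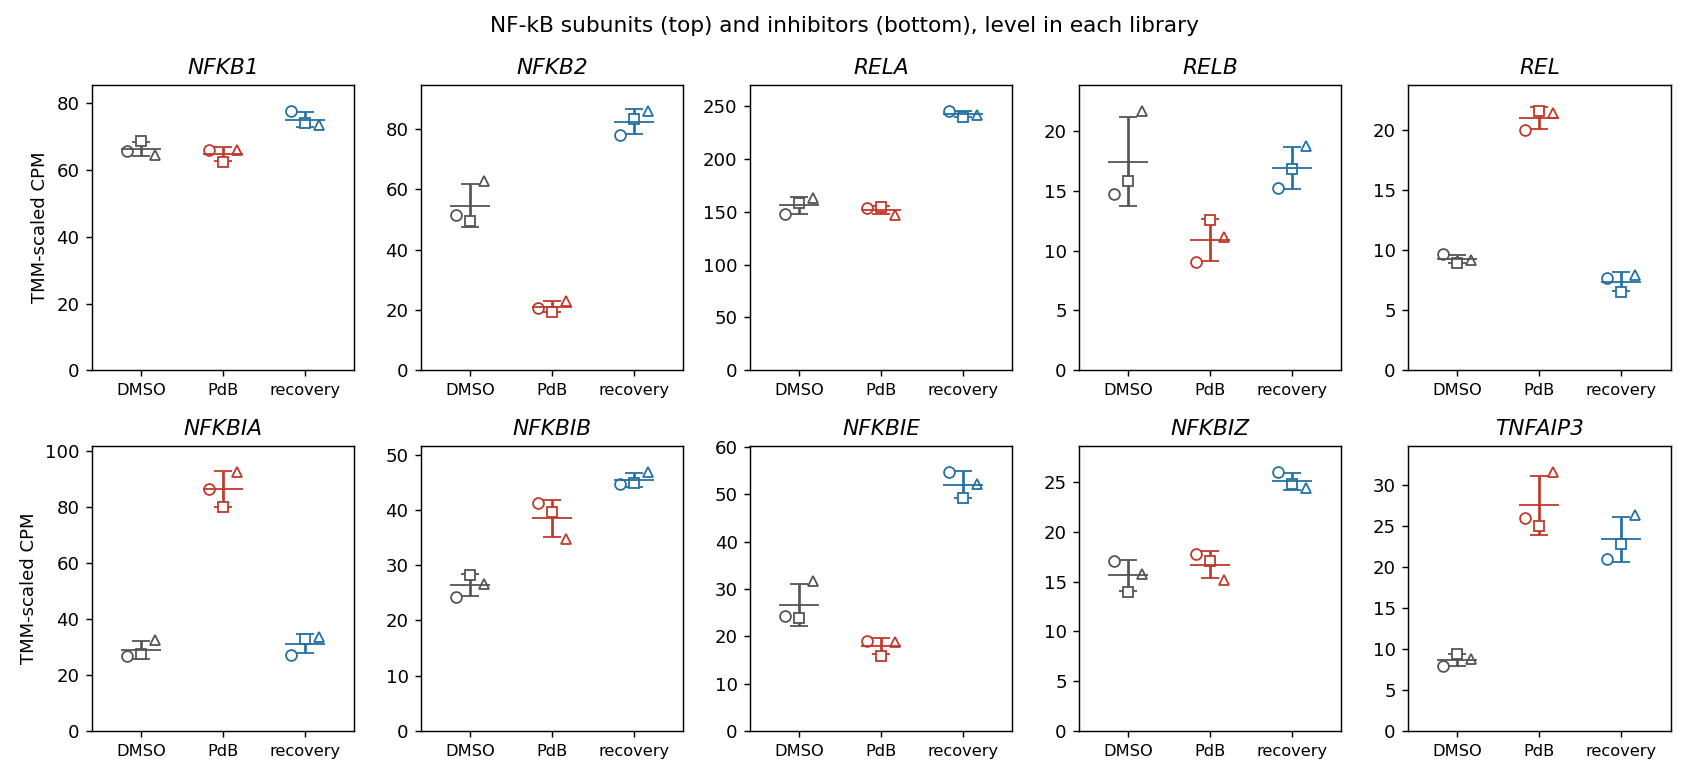
Level of each member in every library (y axis, TMM-scaled CPM from 0, a separate scale per gene) for DMSO, PdB and recovery. Circles, squares and triangles are replicates 1, 2 and 3, the long bar is the mean and the short bars are 1 SD. NFKBIA, TNFAIP3 and REL stand high in PdB, NFKB2 and NFKBIE are lowest in PdB and highest at recovery, and RELA is high at recovery alone.

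Among the subunits, NFKB2 had the widest swing. NFKB2 (ENSG00000077150.20, chr10:102394110-102402529, plus strand, GRCh38 with GENCODE 29 for this and the other genes) encodes p100, both the precursor of p52 and an inhibitor in its own right. Its DMSO libraries measured 51.6, 49.5 and 62.8 CPM, its PdB libraries 20.7, 19.4 and 23.0 CPM, and its recovery libraries 78.1, 83.4 and 86.1 CPM. All 9 values fall into 3 separate ranges, PdB lowest and recovery highest. The log2 change was -1.38 ± 0.09 (SE) under PdB (edgeR adjusted p = 1.03e-11) and 0.59 ± 0.08 at recovery (adjusted p = 2.21e-06), both against DMSO. From PdB to recovery the rise was 3.92-fold (edgeR adjusted p = 5.66e-14), the widest change of a member in any comparison.

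RELB, the partner of p52 in the noncanonical pathway, fell with NFKB2 and then returned to the DMSO range. RELB (ENSG00000104856.14, chr19:45001430-45038198, plus strand) measured 14.8, 15.8 and 21.7 CPM in DMSO, 9.08, 12.6 and 11.1 CPM in PdB, and 15.2, 16.8 and 18.7 CPM at recovery. The PdB values were below all others, and the recovery values lay within the DMSO range, which DMSO replicate 3 widened. Its log2 change was -0.67 ± 0.14 (SE) under PdB (edgeR adjusted p = 3.21e-04) and -0.04 ± 0.14 at recovery (adjusted p = 0.816), with a 95% interval of -0.33 to 0.25. The sign of that last value turned under other scalings.

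NFKB1 encodes p105, the precursor of p50, and sits on chr4:102501329-102617302, plus strand (ENSG00000109320.13). Its 3 libraries gave 65.8, 68.7 and 64.6 CPM in DMSO, 66.1, 62.5 and 65.9 CPM in PdB, and 77.8, 74.1 and 73.6 CPM at recovery. DMSO and PdB overlapped, and the recovery values lay above both. The log2 change was -0.03 under PdB (95% interval -0.15 to 0.08, edgeR adjusted p = 0.592), with a sign that depends on scaling, and 0.18 ± 0.05 (SE) at recovery (adjusted p = 0.00637). That recovery change is the smallest among the called members.

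RELA encodes p65, the main activating subunit of the canonical pathway, and was the most abundant subunit transcript per length in each group. RELA (ENSG00000173039.19, chr11:65653596-65663094, minus strand) measured 147, 158 and 163 CPM in DMSO, 154, 154 and 147 CPM in PdB, and 245, 239.6 and 242 CPM at recovery. PdB and DMSO overlapped, while the 3 recovery libraries were far above. Its log2 change was -0.04 under PdB (95% interval -0.14 to 0.06, edgeR adjusted p = 0.428) and 0.63 ± 0.05 (SE) at recovery (adjusted p = 3.25e-10). Scaling turned the sign of the PdB value, and with library totals alone RELA (-0.24) and NFKB1 (-0.23) passed as falls.

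REL encodes c-Rel, a subunit best known from lymphocytes, and was the 1 subunit that rose under PdB. REL (ENSG00000162924.15, chr2:60881521-60931610, plus strand) measured 9.65, 8.97 and 9.21 CPM in DMSO, 19.98, 21.6 and 21.5 CPM in PdB, and 7.68, 6.49 and 7.94 CPM at recovery. The PdB values were more than 2-fold above DMSO, and the recovery values were below it without overlap. Its log2 change was 1.18 ± 0.10 (SE) under PdB (edgeR adjusted p = 2.51e-09) and -0.33 ± 0.11 at recovery (adjusted p = 0.0108). The recovery call was lost without recovery replicate 2, where the change was -0.25 (adjusted p = 0.0790). Exons of REL overlap those of the noncoding gene AC010733.2 on the same strand, which measured 4.91 CPM in DMSO, 11.5 CPM in PdB and 3.25 CPM at recovery (means, n = 3), so reads of the 2 genes may not have been told apart.

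Of the inhibitors, NFKBIA rose under PdB and overlapped DMSO at recovery. NFKBIA (ENSG00000100906.11, chr14:35401511-35404749, minus strand) encodes IkB-alpha, the classical inhibitor that NF-kB induces and that is degraded on stimulation. It measured 26.8, 27.5 and 32.6 CPM in DMSO, 86.6, 79.9 and 92.7 CPM in PdB, and 27.3, 32.7 and 33.5 CPM at recovery. All PdB values were more than 2-fold above any other library, and recovery overlapped DMSO. The log2 change was 1.58 ± 0.09 (SE) under PdB (edgeR adjusted p = 1.89e-12) and 0.11 ± 0.09 at recovery (adjusted p = 0.308), with a 95% interval of -0.08 to 0.29.

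TNFAIP3 encodes A20, which edits ubiquitin chains on adaptors to end signalling, and rose under PdB as NFKBIA did but was still higher than DMSO at recovery. TNFAIP3 (ENSG00000118503.15, chr6:137867188-137883312, plus strand) measured 7.88, 9.38 and 8.76 CPM in DMSO, 26.0, 24.9 and 31.6 CPM in PdB, and 21.0, 22.8 and 26.4 CPM at recovery. DMSO lay below every other library, and PdB and recovery overlapped. Its log2 change against DMSO was 1.66 ± 0.11 (SE) under PdB (edgeR adjusted p = 2.45e-11) and 1.43 ± 0.11 at recovery (adjusted p = 4.60e-10). From PdB to recovery it was -0.23 ± 0.11 (adjusted p = 0.0578). That change passed without PdB replicate 2 (-0.30) and without recovery replicate 3 (-0.32). It also passed with RLE factors, upper-quartile factors, the minimum mean count, DESeq2 and the replicate block. It did not pass with library totals (0.032), without the filter, in the fit of the libraries compared or without any other single library. NFKBIA and TNFAIP3, alike under PdB, thus stood apart at recovery, where their 95% intervals against DMSO were -0.08 to 0.29 and 1.20 to 1.66. That difference between genes was not tested.

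NFKBIB and NFKBIE, which encode IkB-beta and IkB-epsilon, moved apart under PdB and together at recovery. NFKBIB (ENSG00000104825.17, chr19:38899700-38908893, plus strand) measured 24.3, 28.3 and 26.5 CPM in DMSO, 41.2, 39.5 and 34.7 CPM in PdB, and 44.7, 44.8 and 46.9 CPM at recovery. NFKBIE (ENSG00000146232.17, chr6:44258166-44265788, minus strand) measured 24.3, 23.9 and 31.7 CPM in DMSO, 19.0, 15.9 and 18.7 CPM in PdB, and 54.8, 49.2 and 52.3 CPM at recovery. The groups of each gene did not overlap: NFKBIB went up at both steps, and NFKBIE dipped and then reached the highest values. For NFKBIB the log2 change was 0.55 ± 0.08 (SE) under PdB (edgeR adjusted p = 2.19e-06) and 0.79 ± 0.08 at recovery (adjusted p = 1.54e-08). For NFKBIE it was -0.57 ± 0.10 (edgeR adjusted p = 3.97e-05) and 0.97 ± 0.10 (adjusted p = 3.80e-08). DMSO replicate 3 was the highest of its group for NFKBIE, NFKB2, RELA, RELB and NFKBIA, 5 of 10 members against 34.4% of all genes. Recovery replicate 3 was the highest of its group for NFKB2, RELB, REL, NFKBIA, NFKBIB and TNFAIP3, 6 of 10 against 36.5%, and NFKB2 and NFKBIA were highest in replicate 3 of all 3 groups. Without DMSO replicate 3, the PdB changes of NFKBIE, NFKB2 and RELB were -0.44, -1.28 and -0.50, all still passing.

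Exons of NFKBIB overlap those of SIRT2 on the opposite strand, and whether the counting used strand is not given in the sources used here. SIRT2, a deacetylase gene, measured 38.2 CPM in DMSO, 38.9 CPM in PdB and 19.9 CPM at recovery (means, n = 3). Its log2 change was 0.03 under PdB (edgeR adjusted p = 0.759) and -0.94 at recovery (adjusted p = 3.51e-10). How the overlap bears on the counts of NFKBIB was not tested. Exon overlaps of RELA with AP001362.2 and of TNFAIP3 with AL357060.1 concerned transcripts that did not exceed 1.83 CPM and 0.770 CPM in any library.

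NFKBIZ encodes IkB-zeta, an atypical nuclear IkB that acts as a co-activator of secondary response genes such as IL6. NFKBIZ (ENSG00000144802.11, chr3:101827991-101861022, plus strand) measured 17.1, 14.0 and 15.8 CPM in DMSO, 17.8, 17.1 and 15.2 CPM in PdB, and 26.0, 24.8 and 24.4 CPM at recovery. DMSO and PdB overlapped and the recovery libraries were all higher. Its log2 change was 0.09 under PdB (95% interval -0.10 to 0.29, edgeR adjusted p = 0.389) and 0.68 ± 0.09 (SE) at recovery (adjusted p = 2.05e-06). The PdB value passed as a rise with upper-quartile factors (0.24) and with a minimum mean of 50 counts (0.22), and was -0.11 with library totals.

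**Figure D2:**
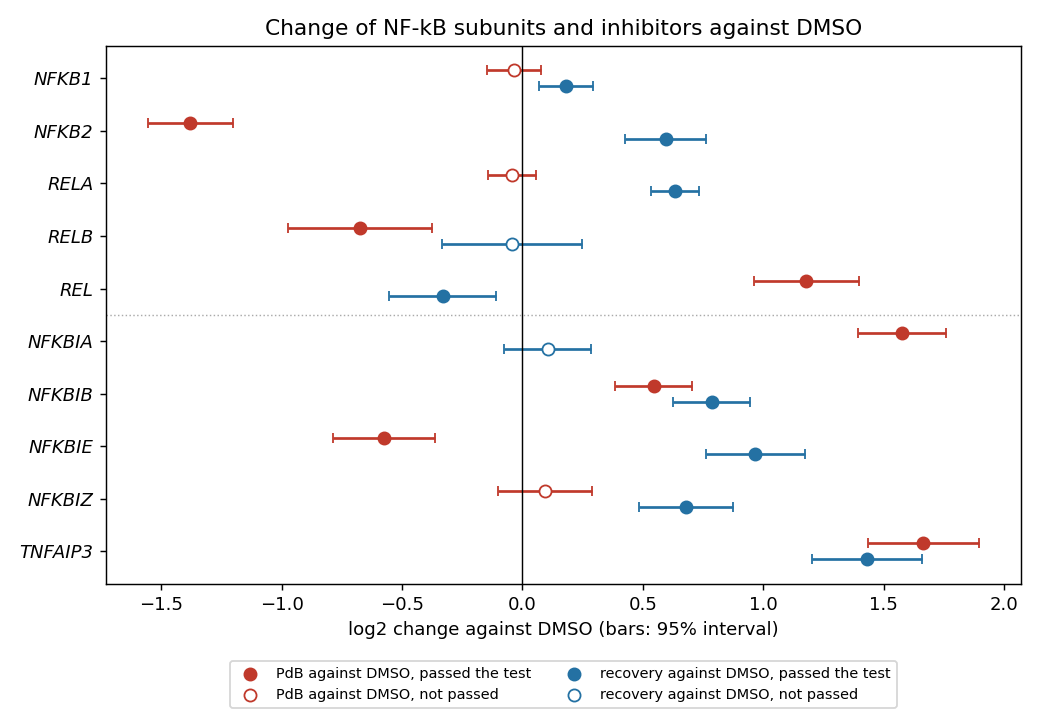
Log2 change against DMSO (x axis) of each member under PdB (red) and at recovery (blue), with bars for the 95% interval and filled points for those that passed the test. Subunits are above the dotted line and inhibitors below it. NFKB2 and NFKBIE lie left of 0 under PdB and right of it at recovery, REL lies the other way round, and NFKBIA goes from 1.58 to 0.11.

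By their calls in the 2 comparisons with DMSO, some members shared a pattern and others stood alone. NFKB1, RELA and NFKBIZ were not called under PdB and rose at recovery, a pattern of 5.5% of all genes tested. NFKB2 and NFKBIE fell and then rose above DMSO, as did 6.43% of genes. NFKBIB and TNFAIP3 rose in both (18.8% of genes), REL rose and then fell (4.93%), NFKBIA rose under PdB alone (8.25%) and RELB fell under PdB alone (11.5%). With 10 members these shares are descriptions, and the comparisons share their DMSO libraries. The longest annotated transcript has 10, 5, 4 and 8 introns in REL, NFKBIA, NFKBIB and TNFAIP3, which rose under PdB. It has 22, 11 and 5 in NFKB2, RELB and NFKBIE, which fell. It has 23, 9 and 11 in NFKB1, RELA and NFKBIZ, which did not pass. Whether intron number bears on the calls was not tested.

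Levels were compared between genes as CPM per kilobase of exon. In DMSO RELA led the 10 members at 28.6 ± 1.5 CPM per kb (mean ± SD, n = 3, here and below). NFKBIA (12.2), NFKB2 (12.2), NFKBIB (11.4), NFKB1 (10.6) and NFKBIE (10.3 CPM per kb) followed, and each of these overlapped the next in the order. RELB at 5.74, NFKBIZ at 2.65, TNFAIP3 at 1.72 and REL at 0.704 CPM per kb were lower, each apart from its neighbours. Under PdB NFKBIA stood first at 36.4 ± 2.7 CPM per kb, above RELA at 27.7 ± 0.7, with no overlap. NFKBIB at 16.6, NFKB1 at 10.4 and NFKBIE at 6.93 CPM per kb came next, then TNFAIP3 at 5.44 and NFKB2 at 4.69, which overlapped, then RELB at 3.60 and NFKBIZ at 2.83, which also overlapped, and REL at 1.60. NFKBIE and TNFAIP3 overlapped too. At recovery RELA was again first at 44.4 ± 0.5 CPM per kb. NFKBIE at 20.2 and NFKBIB at 19.6 CPM per kb overlapped behind it, ahead of NFKB2 at 18.4, of NFKBIA at 13.1 and NFKB1 at 12.0, which overlapped, and of RELB at 5.58, TNFAIP3 at 4.63 and NFKBIZ at 4.25, each overlapping the next. REL was last at 0.560 CPM per kb.

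Per length, the ratio of inhibitor to subunit transcripts was highest in PdB. The ratio of NFKBIA to RELA, in CPM per kb, was 0.426 ± 0.029 in DMSO, 1.31 ± 0.13 in PdB and 0.296 ± 0.035 after recovery, with no overlap between any 2 groups. The 3 cytoplasmic IkB transcripts NFKBIA, NFKBIB and NFKBIE together came to 0.585 ± 0.016 of the 5 subunits in DMSO, 1.25 ± 0.06 in PdB and 0.654 ± 0.010 at recovery. Their sum was 33.9 CPM per kb in DMSO, 59.9 in PdB and 52.9 at recovery, while the subunit sum was 57.8, 48.0 and 80.9 CPM per kb. In CPM, not divided by length, the 3 IkB genes summed to 82.0, 143 and 129 and the 5 subunits to 304, 269 and 424. Whether a ratio passes 1 thus rests on the division by the union of annotated exons, which need not be the length of the transcripts made in these cells. These sums and ratios were not tested, and they describe transcripts, not proteins. The counts are totals per gene and do not separate spliced from unspliced RNA, in PdB as in the other groups.

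Within the 5 subunits, the share of NFKB2 went from 21.0% ± 1.6 in DMSO to 9.78% ± 0.89 in PdB and 22.7% ± 0.9 at recovery. REL made up 1.22% ± 0.11 of subunit transcripts in DMSO, 3.33% ± 0.13 in PdB and 0.691% ± 0.068 at recovery. RELA held 49.5%, 57.8% and 54.8%. Within the 3 IkB transcripts, NFKBIA made up 36.0% ± 0.8 in DMSO, 60.7% ± 2.6 in PdB and 24.8% ± 2.3 at recovery. The share of NFKBIE was 30.3% ± 2.4, 11.6% ± 0.6 and 38.2% ± 2.3. In PdB NFKBIA was most of the IkB pool, and at recovery NFKBIE and NFKBIB each held more than NFKBIA in every library.

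**Figure D3:**
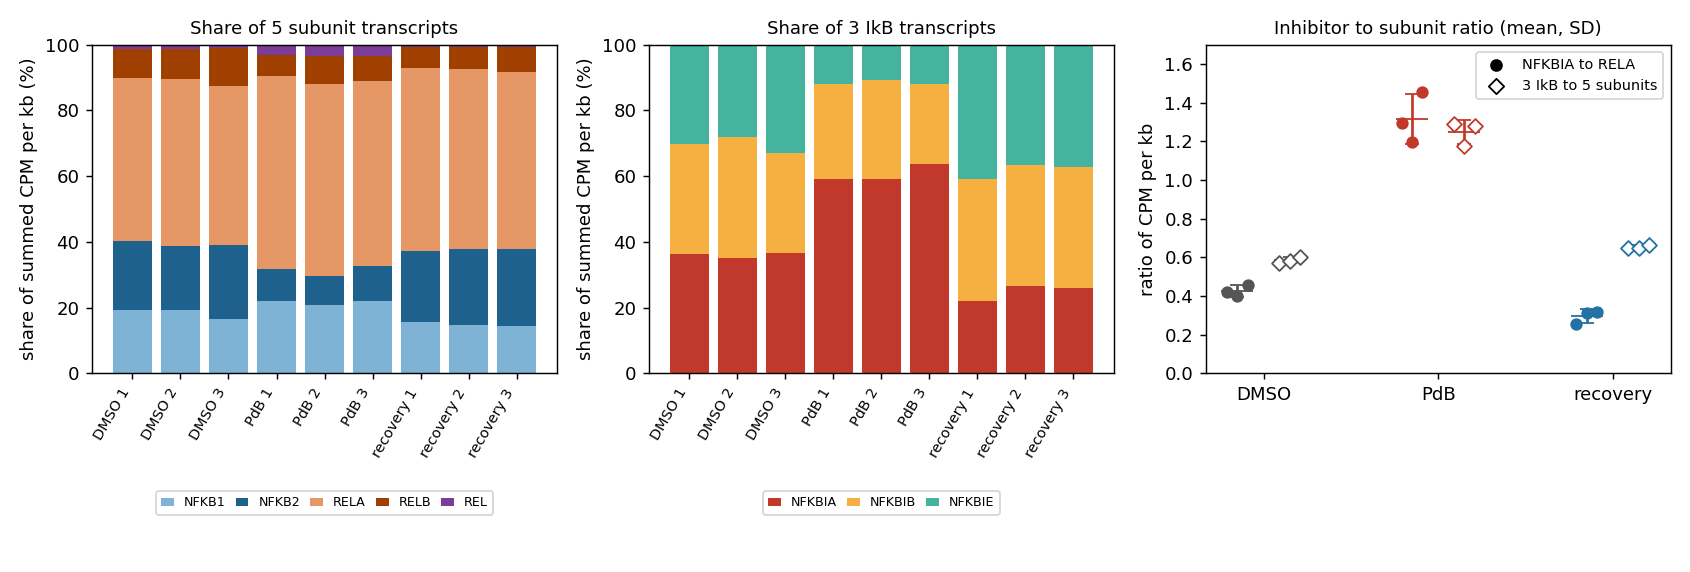
Share of each gene in the summed CPM per kb of the 5 subunits (left) and of the 3 IkB genes (middle) in every library, and the ratio of inhibitor to subunit transcripts per library with mean and SD (right). NFKB2 is 9.78% of subunits in PdB, NFKBIA is 60.7% of the IkB transcripts there, and the NFKBIA to RELA ratio is 1.31 in PdB against 0.426 in DMSO and 0.296 at recovery.

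The pathway around the members was read from 6 lists of 117 genes. Upstream, 18 of 25 receptor and adaptor genes fell under PdB, 4 rose and 3 were not called, where 38.1% of all genes fell and 31.9% rose. Their median log2 change was -0.79 against -0.11 for all genes. At recovery 10 fell and 9 rose, where 30.5% and 30.7% of all genes did, with a median of 0.00 against 0.03. TLR4, the receptor for lipopolysaccharide, went against the list, with 16.4 ± 0.6 CPM in DMSO, 48.1 ± 5.0 in PdB and 130 ± 16 at recovery, log2 changes of 1.55 and 2.99 (edgeR adjusted p = 8.73e-12 and 3.73e-15). TNFRSF1B, which encodes TNF receptor type 2, went from 9.89 ± 0.90 to 1.301 ± 0.404 and 5.72 ± 1.02 CPM, a PdB change of -2.93. The ligases BIRC2 and BIRC3 (cIAP1 and cIAP2), which act on RIPK1 and NIK, fell by 1.27 and 0.83 on the log2 scale under PdB. At recovery BIRC3 was still lower by -0.65, and BIRC2 by -0.18, a call lost without DMSO replicate 2.

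In the noncanonical arm, CHUK, BIRC2 and BIRC3 fell under PdB as NFKB2 and RELB did, and MAP3K14 rose. MAP3K14, which encodes NIK, measured 51.8 ± 3.1 CPM in DMSO and 113.8 ± 6.8 in PdB, higher by 1.14 on the log2 scale (edgeR adjusted p = 5.12e-13), and 58.0 ± 1.2 at recovery. TRAF3, the adaptor that marks NIK for degradation, changed by 0.27 under PdB, a call lost with library totals alone, and fell by 1.23 at recovery. MAP3K14 at recovery changed by 0.16, a call lost without DMSO replicate 1 or recovery replicate 3.

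Of the 15 genes for kinases and the linear ubiquitin ligase complex (LUBAC), 8 fell and 6 rose under PdB (38.1% and 31.9% of all genes), with a median of -0.30 against -0.11. At recovery 4 fell and 8 rose (30.5% and 30.7% of all genes), with a median of 0.16 against 0.03. The catalytic IkB kinases both fell under PdB. CHUK (IKK-alpha) went from 44.7 ± 0.5 to 16.2 ± 2.0 CPM, a log2 change of -1.46, and was at 49.95 ± 1.43 at recovery. Its recovery change of 0.16 did not pass (edgeR adjusted p = 0.0677), though the groups did not overlap. It passed as a rise with RLE factors (0.21), upper-quartile factors (0.24), library totals (0.23), DESeq2 (0.21) and a minimum mean of 50 counts (0.20). It also passed with the replicate block, in the fit of the 6 libraries compared and without PdB replicate 2 or 3. IKBKB (IKK-beta) went from 48.2 ± 1.9 to 20.4 ± 1.4 and 36.9 ± 1.6 CPM, changes of -1.24 and -0.38. IKBKG (NEMO), the regulatory subunit, which has a near-identical pseudogene copy and is therefore uncertain, did not pass under PdB (0.18, 95% interval -0.02 to 0.39) and rose by 0.51 at recovery. The PdB value of IKBKG passed as a rise with RLE factors (0.28), upper-quartile factors (0.33), DESeq2 (0.28) and a minimum mean of 50 counts (0.31). It also passed in the fit of the 6 libraries compared (0.26) and without PdB replicate 3 (0.28), and was -0.015 with library totals. MAP3K7 (TAK1), which activates the IkB kinases, fell by 1.69 and 1.40, and its partner TAB1 fell by 3.19 under PdB, from 26.7 ± 1.2 to 2.94 ± 0.76 CPM. MAP3K8 (TPL2), a kinase held by p105, rose by 0.69 under PdB, with overlapping groups, and by 1.84 at recovery.

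Of 10 genes for ubiquitylation of IkB, 6 fell and 2 rose under PdB, where 38.1% of all genes fell and 31.9% rose, with a median of -0.54 against -0.11. The 3 falls and 4 rises at recovery were near the shares of all genes, 30.5% and 30.7%, with a median of 0.05 against 0.03. BTRC (beta-TrCP), the receptor that recognises phosphorylated IkB, fell from 34.8 ± 1.6 to 7.47 ± 0.74 CPM under PdB, a log2 change of -2.22, and was at 26.0 ± 0.4 at recovery. Its relative FBXW11 fell by 0.99 under PdB and rose by 0.78 at recovery. Among conjugating enzymes UBE2D1 changed by -1.38 and 1.33, UBE2R2 rose by 1.57 and 0.27, and UBE2D2 fell by 0.27, a call lost with upper-quartile factors, and 0.54. In PdB libraries NFKBIA transcripts were high and those of NFKBIE were low. Transcripts of both catalytic IkB kinases and of BTRC were low, and those of UBE2R2 were high. Whether these changes are linked was not tested.

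The 17 other inhibitors and deubiquitinases had 10 falls and 5 rises under PdB (38.1% and 31.9% of all genes), with a median of -0.50 against -0.11. They had 2 falls and 8 rises at recovery (30.5% and 30.7% of all genes), with a median of 0.23 against 0.03. NKRF, a repressor of NF-kB promoters, measured 37.4 ± 3.6 CPM in DMSO and 161 ± 11 in PdB, a rise of 2.11 on the log2 scale, and was still higher by 1.16 at recovery. The atypical nuclear IkB genes BCL3 and NFKBID fell by 0.51 and 1.79 under PdB, and NFKBIZ did not pass. TNIP1, whose product binds A20, fell by 0.78 under PdB while TNFAIP3 rose. CYLD, a deubiquitinase of the pathway, changed by -0.54 and 0.61. COMMD1, whose product promotes turnover of the RELA protein, fell by 1.19 at recovery.

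Of 10 genes that bear on the decay of NF-kB-induced transcripts, 8 rose and 1 fell under PdB (31.9% and 38.1% of all genes), with a median of 0.39 against -0.11 for all genes. At recovery 4 rose and 3 fell (30.7% and 30.5% of all genes), with a median of 0.04 against 0.03. The 8 include MALT1 and ARID5A (0.35), whose products act against decay. ZC3H12A (Regnase-1), an RNase that cuts cytokine transcripts, went from 2.75 ± 0.33 to 10.1 ± 0.2 and 11.1 ± 0.1 CPM, log2 changes of 1.87 and 2.01. The related ZC3H12C rose by 2.41 and 0.68. ZFP36 (tristetraprolin) was the 1 fall, by 0.97. MALT1, the protease that cleaves A20 and Regnase-1, rose by 0.44 and fell by 1.28 at recovery.

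Downstream, 39 of 40 target genes were matched by symbol and 31 passed the filter. Under PdB 14 rose, 9 fell and 8 were not called, where 31.9% of all genes rose, 38.1% fell and 70.0% were called, and the median log2 change was 0.46 against -0.11. At recovery 13 rose and 7 fell, against 30.7% and 30.5% of all genes, with a median of 0.07 against 0.03. IL6, an inflammatory cytokine, measured 1.57, 1.28 and 2.30 CPM in DMSO, 8.76, 9.32 and 8.68 CPM in PdB, and 8.79, 8.24 and 9.76 CPM at recovery. Against DMSO it rose by 2.37 under PdB and by 2.38 ± 0.18 (SE) at recovery (edgeR adjusted p = 1.92e-10 and 3.24e-10), and PdB and recovery overlapped. CXCL8, a neutrophil chemokine, rose by 1.80 under PdB and by 1.75 ± 0.19 at recovery (edgeR adjusted p = 3.33e-08 and 6.79e-08). PTGS2 (COX-2) rose by 3.51 under PdB and was higher by 1.57 ± 0.27 at recovery (edgeR adjusted p = 2.40e-10 and 3.41e-05). The adhesion gene ICAM1 measured 11.9, 9.54 and 19.9 CPM in DMSO, 33.4, 29.8 and 63.5 CPM in PdB and 39.7, 39.8 and 46.5 CPM at recovery, with changes of 1.61 ± 0.39 and 1.60 ± 0.39 (edgeR adjusted p = 0.00894 and 0.0104). Replicate 3 was the highest ICAM1 library in each group.

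Further targets differed among themselves. PLAU, which encodes urokinase, fell from 372 ± 34 CPM in DMSO to 52.8 ± 7.4 in PdB and 90.1 ± 13.2 at recovery, log2 changes of -2.82 and -2.04. EFNA1, an ephrin ligand, rose from 1.05 ± 0.31 to 3.70 ± 0.47 and 5.71 ± 0.80 CPM, log2 changes of 1.81 and 2.43. The chemokine CXCL1 was below 1.4 CPM in every library and IER3, an immediate early gene, was at 142 ± 25, 137 ± 20 and 146 ± 13 CPM, and neither passed the test in either comparison. CXCL2 changed by 0.92 under PdB (edgeR adjusted p = 0.0297), a call lost when any DMSO library, PdB replicate 1 or PdB replicate 2 was left out (adjusted p 0.0512 to 0.118). That call was also lost with library totals alone (0.71, edgeR adjusted p = 0.0850). At recovery CXCL2 changed by 1.15, a call lost without recovery replicate 3. CCL2 did not pass the filter, with at most 20 counts in a library.

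**Figure D4:**
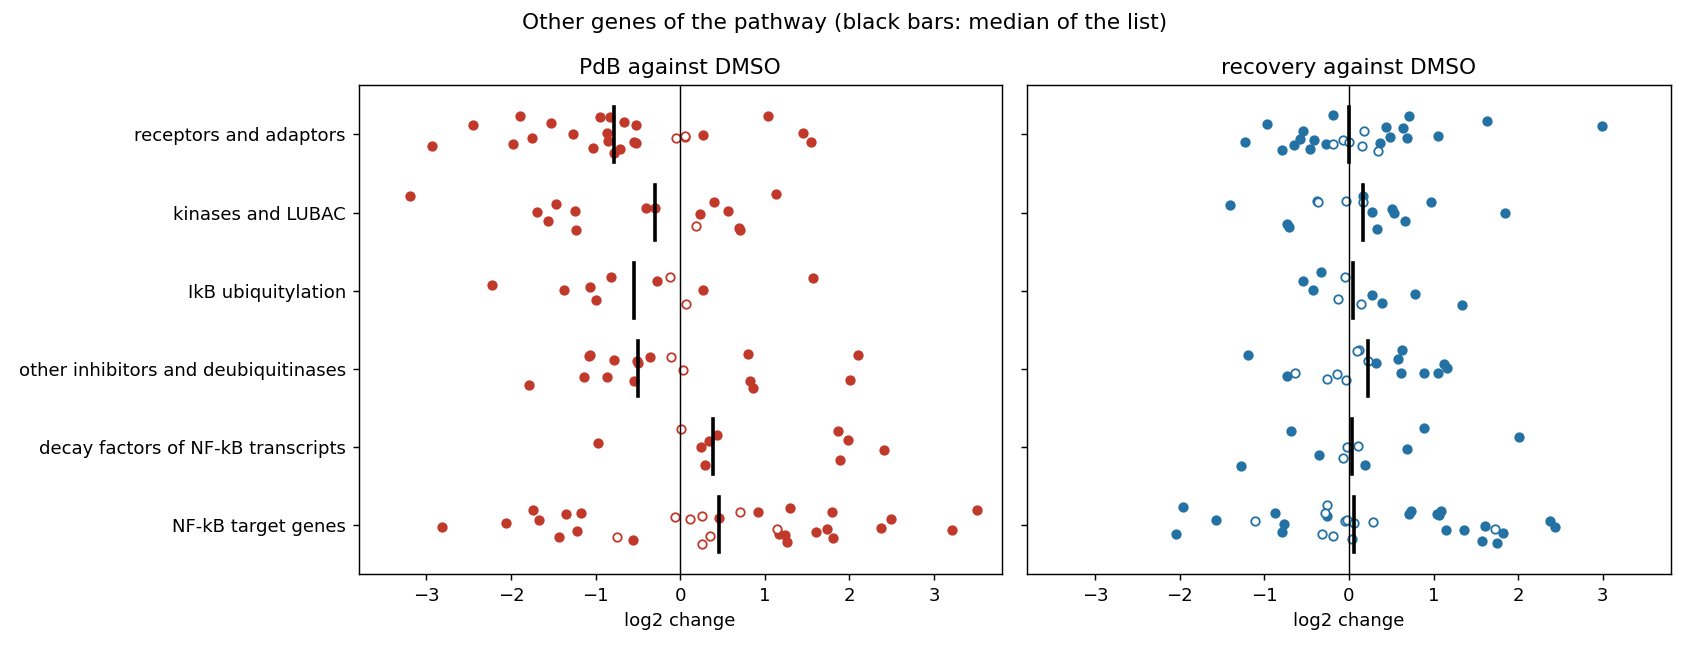
Log2 change of each tested gene of the 6 pathway lists under PdB (left) and at recovery (right), both against DMSO. Filled points passed the test and black bars are list medians. Under PdB receptors and adaptors lie mostly left of 0 (median -0.79) and decay factors and target genes mostly right of it (0.39 and 0.46), while all 6 medians lie between 0.00 and 0.23 at recovery.

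The genes most like NFKBIA and RELA over the 9 libraries were sought by Pearson's r of log2 CPM among 12213 genes, as a description: the libraries share 3 groups, so any gene with the same group pattern scores high. Among the genes closest to NFKBIA were FDXACB1 (r = 0.997) and RAB11FIP5 (r = 0.993), and 690 genes had r over 0.95. FDXACB1 measured 7.39 ± 0.87 CPM in DMSO, 28.3 ± 2.3 in PdB and 7.70 ± 1.51 at recovery. RELA was closest to TRIM26 (r = 0.997), AMBRA1 (r = 0.994) and DPF2 (r = 0.994), with 319 genes over 0.95. DPF2 measured 69.4 ± 2.8, 67.9 ± 4.4 and 156 ± 3 CPM.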

How the data were processed

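The labels name polyadenylated RNA and the Universal Plus mRNA-Seq kit. Whole-number read counts per gene, not normalized, were deposited by the authors. Per the submitters' processing notes, reads were handled with featureCounts 2.0.3, DESeq2 1.30.0, STAR 2.7.9a, fastp 0.23.2 and Picard on build hg38. Neither the labels nor these notes give the settings, the annotation release or the use of strand.

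Symbols came from a table of gene IDs, and coordinates, introns and exon lengths from GENCODE 29. Counts were filtered with filterByExpr (20812 genes), TMM-scaled and tested two-sided with edgeR 4.0.16 in R 4.3.3 (quasi-likelihood, robust, all 9 libraries, common biological coefficient of variation 0.111). CPM are TMM-scaled. Alternatives are listed in the closing section. The scripts were tested on simulated data.

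The members, the lists, the tests and the naming rule were chosen with earlier results of these data known. Named genes are all 10 members, the largest rise and fall of each list in each comparison with DMSO (mean of at least 100 counts), and 22 genes of known role, of which SOD2 was not matched. Library pairs within groups differed beyond counting noise (chi-square per degree of freedom 4.98 to 26.0), so no column was treated as the same library again, which leaves unknown whether cultures were separate. The replicate numbers were not used for pairing. For NFKBIA and RELA the 3 genes of most similar pattern were sought, and 1 of them is not reported here.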

Additional observations from a re-analysis of the deposited data

How the results depend on the processing

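Each result was recomputed with RLE factors, upper-quartile factors and library totals, without the filter, with a minimum mean of 50 counts, with DESeq2 1.42.0, in fits of the 6 libraries compared, with the replicate block, against a 2-fold change, and with each library left out in turn. Against a 2-fold change, 4 members passed under PdB, 1 at recovery and 4 between PdB and recovery (5985, 2893 and 4427 of all genes). The median log2 change of all genes under PdB was -0.11 by TMM, -0.01 by RLE, 0.04 by upper quartile and -0.31 by library totals. Rises and falls, in that order, were 6649 and 7926, 7171 and 7365, 7487 and 7049, and 5550 and 9086. Between PdB and recovery, library totals gave a median of 0.33 with 8842 rises and 4861 falls, and TMM 7199 and 6549.

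Signs turned only for values that had not passed. In the order RLE, upper quartile, minimum mean, DESeq2 and 6 libraries, the PdB change of NFKB1 was 0.062, 0.12, 0.089, 0.062 and 0.043, that of RELA 0.053, 0.11, 0.079, 0.053 and 0.033, and that of IER3 0.042, 0.097, 0.068, 0.042 and 0.024. The upper-quartile value of RELA passed (edgeR adjusted p = 0.0415). RELB at recovery was 0.0037 by RLE, 0.0037 by DESeq2, 0.036 by upper quartile and 0.029 by library totals, and -0.15 to 0.14 with 1 library left out. Library totals gave -0.11 for NFKBIZ and -0.015 for IKBKG under PdB and 0.032 for TNFAIP3 between PdB and recovery. COMMD1 under PdB was 0.044 by upper quartile and 0.016 with the minimum mean. CXCL1 at recovery was 0.018 by RLE, 0.050 by upper quartile, 0.044 by library totals and 0.018 by DESeq2. With 1 library left out, CXCL1 ran from -0.11 to 0.74 under PdB and from -0.18 to 0.12 at recovery, and IER3 from -0.18 to 0.087 and from -0.057 to 0.19. The cause was not tested.

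Same-numbered libraries correlated by 0.011 to 0.163 in their deviations from the group means, over 0.1 in 4 of 9 pairs, which include all 3 pairs of replicate 3, so the condition for pairing (every pair over 0.1) was not met. As a hint from the data and not the design, libraries correlated best with their own number in 15 of 18 cases. With the replicate block 7, 8 and 10 members passed, the addition being TNFAIP3 between PdB and recovery (-0.23, edgeR adjusted p = 0.0225). NFKBIB between PdB and recovery missed the threshold with the minimum mean (0.16, edgeR adjusted p = 0.0639). The lowest count of a member in a library was 407, and how depth bears on the calls was not tested.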
